A study of Rattus norvegicus with 18 samples.

Results

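Genes of the podocyte and the glomerulus were followed in whole kidneys of 2 rat strains. The list held 8 genes: Podxl, Nphs1, Ptpro, Synpo, Actn4, Nes, Wt1 and Ptn. A probe set, the unit of these arrays that reports 1 transcript through several short probes, counted as a member when the platform annotation gave it exactly 1 gene symbol and that symbol was on the list. This gave 16 of 26202 probe sets, for 7 of the 8 listed genes, out of 10969 genes in all. No probe set was annotated to Nphs1 alone, so that gene was not analysed here. None of the 8 genes lies on chromosome 9, the chromosome of the segment that differs between the strains.

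The Dahl salt-sensitive rat (Dahl S) is inbred and becomes hypertensive when fed salt. The congenic rat has the Dahl S background and a chromosome 9 segment, introduced from a salt-resistant rat, that holds a blood pressure locus, so both strains share the Dahl S genome outside that segment. Each strain gave 3 samples of total kidney RNA, and each sample was run on the same 3 array types (A, B and C), which makes 18 arrays. Age and diet are not in the labels used here. The labels do not state that the 3 samples came from 3 rats. The p-values set the strain difference only against the scatter of these samples, part of which may be technical.

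The glomerulus is the filter of the kidney, and the podocyte is the cell that wraps its capillaries. Its interlocking foot processes carry a negatively charged coat rich in podocalyxin, are joined by the slit diaphragm built on nephrin (the product of Nphs1), and are shaped by an actin skeleton. Podocytes divide little and their injury leads to proteinuria, a feature for which the Dahl S rat is known. Podocytes make up a small share of the kidney, so in whole-kidney RNA their transcripts are diluted by those of tubules. Fewer podocytes and less RNA per podocyte cannot be told apart in such samples.

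No member differed between the strains at the adjusted threshold. A probe set was tested when its mean log2 signal over the 6 samples reached the 40th percentile of its array type, which corresponds to 21.2 signal units on type A, 39.3 on type B and 37.7 on type C. Of the 16 member probe sets 9 passed this filter, covering 6 genes. All 4 Wt1 probe sets and 1 probe set each of Podxl, Ptpro and Nes did not. With limma, 0 of the 9 had an adjusted p under 0.05, against 0 of all 15721 tested probe sets (0%), and 0 of the 9 had an unadjusted p under 0.05, against 391 of all tested (2.49%). In 1 of the 9, Podxl on type B, the 3 congenic values lay above the 3 Dahl S values without overlap. Over all tested probe sets that held for 564 (3.59%), with 549 (3.49%) lower without overlap, 7.08% in all. Represented by 1 probe set each, 4 of the 6 tested genes had the higher level in congenic kidneys and 2 in Dahl S kidneys, with a median log2 difference (congenic minus Dahl S) of +0.11, beside -0.01 over all 8168 genes tested. Without congenic sample 3 the median of the 6 genes was -0.013, and with the mean of each gene's tested probe sets it was -0.050, so its sign is not settled. In limma all 9 member probe sets had an adjusted p of 0.9997.

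**Figure D1:**
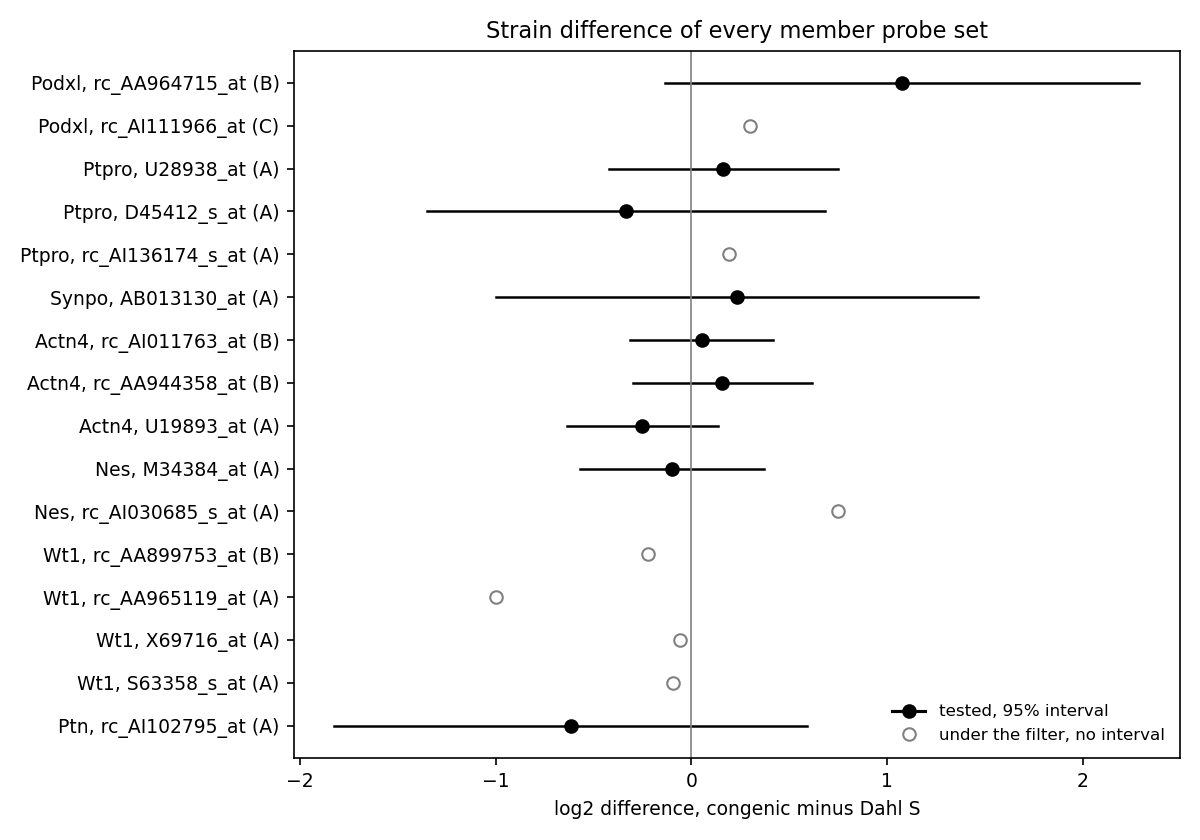
The log2 difference, congenic minus Dahl S, is plotted for every member probe set, with its array type in brackets. Filled points with a line are tested probe sets with the 95% confidence interval of the limma fit, and open points are probe sets under the filter. All 9 intervals include 0, from the widest, around Synpo, to the narrowest, around the brightest Actn4 probe set.

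Of the segment markers that define the kidney, 27 of 29 tubule genes had a probe set and all 27 were tested, such as Umod, the uromodulin of the thick ascending limb, at 5763 to 7456 signal units and Slc34a1, the proximal tubule phosphate cotransporter, at 10807 to 16451. Of the podocyte markers, 5 had a probe set and 4 were tested: Podxl, Ptpro, Synpo and Cd2ap, the adaptor that ties nephrin to the actin skeleton. Wt1 was under the filter. Cd2ap read 280.7, 279.1 and 321.8 in Dahl S kidneys and 198.7, 319.7 and 306.6 in congenic kidneys, a log2 difference of -0.12 (SE 0.25, n = 3 per strain). Its values overlapped, with congenic sample 1 the lowest.

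Podxl encodes podocalyxin, the sialomucin of the podocyte surface, which is also made by endothelial cells. On type B its signal was 266.1, 277.1 and 55.6 in Dahl S samples 1, 2 and 3 and 363.6, 289.5 and 365.7 in congenic samples 1, 2 and 3. The congenic values were all higher, and Dahl S sample 3 stood 4.79-fold below the next lowest sample, while the other 5 lay within 1.37-fold of each other. The geometric means were 160.0 and 337.6, a 2.11-fold difference (log2 +1.08, SE 0.54, 95% interval -0.14 to 2.29, n = 3 per strain), and limma gave it an unadjusted p of 0.0758. Without Dahl S sample 3 the log2 difference was +0.31 (SE 0.23). The size of the difference therefore rests on 1 array, and with each of the 6 samples left out in turn it ran from +0.31 to +1.47.

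**Figure D2:**
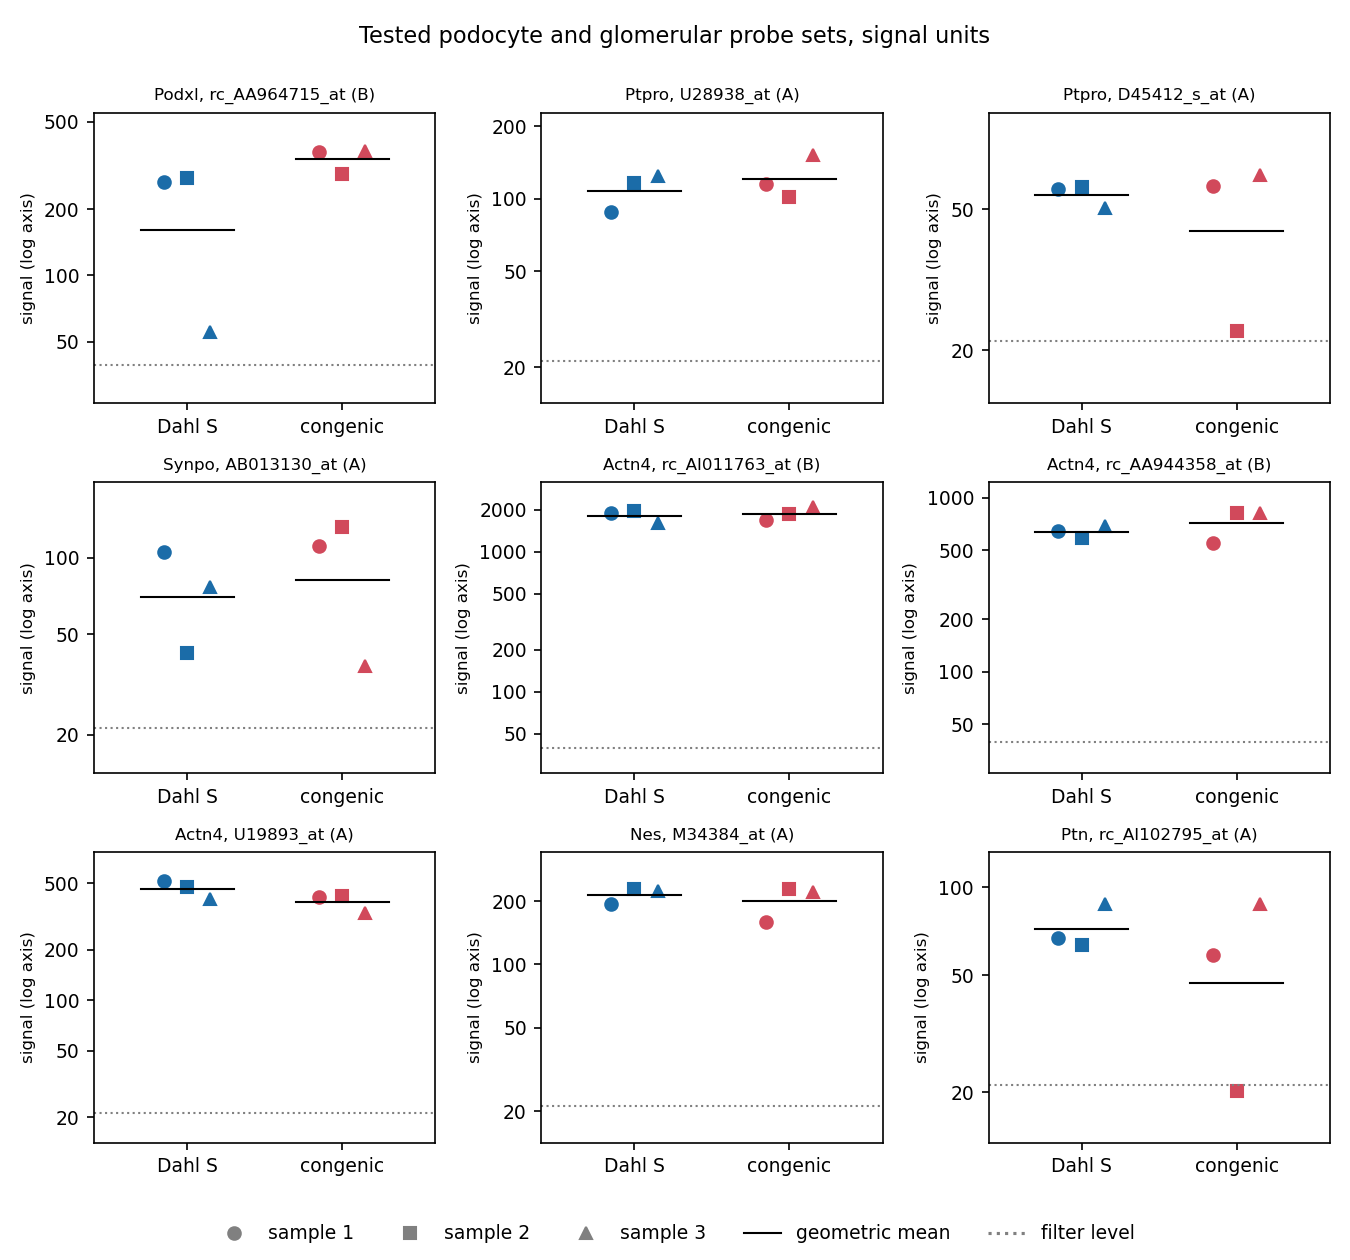
The signal of the 9 tested member probe sets is shown on log axes for Dahl S (blue) and congenic (red) samples, with the symbol giving the sample number, the line the geometric mean and the dotted line the filter level. Dahl S sample 3 stands alone in Podxl at 55.6, and congenic sample 2 stands alone in Ptn at 20.2 and in 1 Ptpro probe set at 22.7.

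The second Podxl probe set, on type C, was under the filter. It read 89, 28.7 and 7.9 in Dahl S samples 1, 2 and 3 and 120.7, 38.4 and 8.1 in congenic samples 1, 2 and 3. Here the strains overlapped throughout and the values went by sample number: both samples numbered 1 were high, both numbered 2 intermediate and both numbered 3 low. Between same-numbered samples the congenic value was 1.36-fold, 1.34-fold and 1.02-fold the Dahl S value. Its log2 difference of +0.30 became -0.59 when Dahl S sample 3 was left out and +1.32 when congenic sample 3 was, so it has no settled direction. Same-numbered samples were neighbours in rank for all 3 numbers in 3021 of 26202 probe sets (11.5%), a description with no test. The log2 ratio of 3 prime to 5 prime signal of the beta-actin control, a sign of RNA integrity or labelling, was 0.22 to 0.68 on arrays of the samples numbered 1 and 1.02 to 1.41 on those of samples 2 and 3 of both strains. For the GAPDH control the same ratio was 0.04 to 0.45 for samples numbered 1 and 0.33 to 0.82 for samples 2 and 3, and these ranges overlap. The part of these ratios in the Podxl values was not tested. In both probe sets Dahl S sample 3 gave the lowest signal of the 6, but on type C congenic sample 3 was as low, whereas on type B congenic sample 3 was the highest.

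Genes were also ranked by how closely their log2 profile over the 6 samples, centred on its own mean, matched that of Podxl on type B. Of 8167 other genes, the nearest were Sec22b, a vesicle fusion protein between the endoplasmic reticulum and the Golgi (root mean square difference 0.07 log2 units), Eps8, an actin-capping protein (0.19), and Cacnb3, a calcium channel subunit (0.21), where the median gene was at 1.00. Sec22b read 198.7, 197.7 and 41.9 in Dahl S kidneys and 251.3, 218 and 292.5 in congenic kidneys. The low value of Dahl S sample 3 dominates the profile that chose these genes, so they were bound to share it, and it lay 4.72-fold, 4.30-fold and 3.79-fold below the next lowest. For Cacnb3 that value, 8.5, was under the type A filter level of 21.2. Another tested Sec22b probe set read 137.2, 160.6 and 156.9 against 147.2, 127.7 and 121.8, without that drop. On type B, 16 of 5239 tested probe sets (0.305%) were at least 4-fold below all other samples in Dahl S sample 3, a share that ran from 0.134% to 0.439% over the 6 samples of that type. Dahl S sample 3 also stood apart in blood cell genes, whose median lay 1.51 log2 units above their mean there and between -0.77 and 0.12 in the other 5 samples. The part of this in the Podxl difference was not tested.

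**Figure D3:**
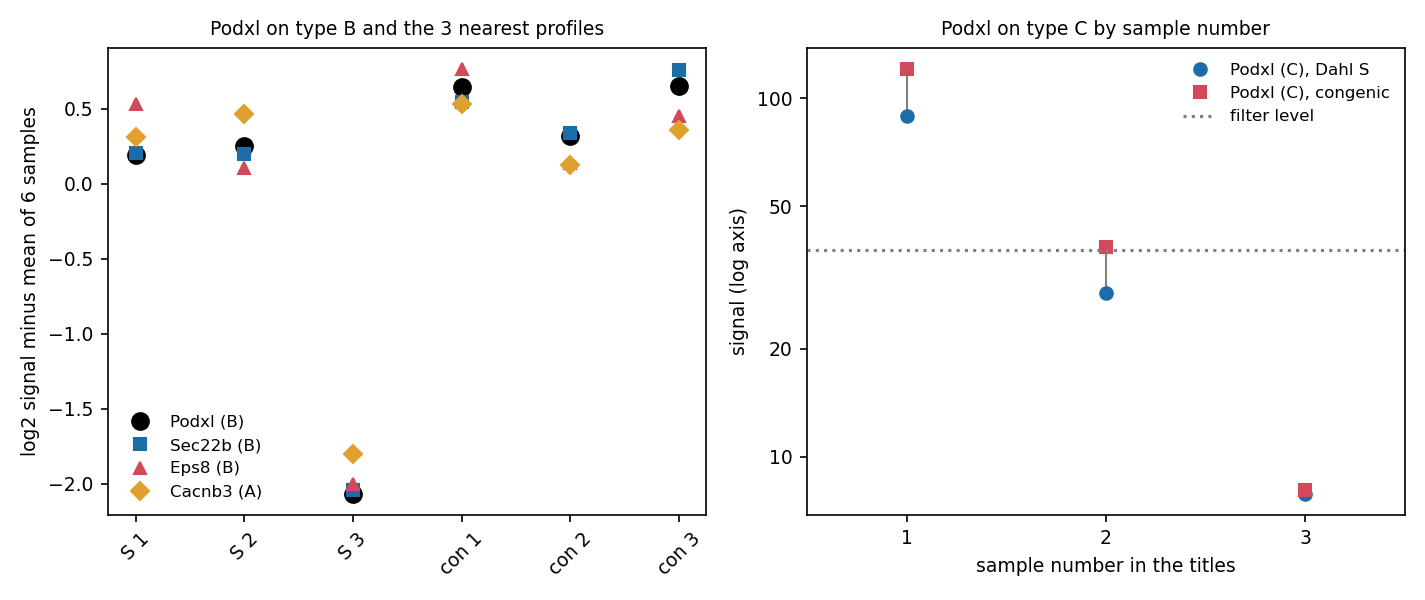
Left, log2 signal minus the mean of the 6 samples for Podxl on type B and the 3 genes with the nearest profile (S, Dahl S; con, congenic). Right, the signal of Podxl on type C on a log axis by sample number, with a line joining the same-numbered samples of the strains and a dotted line at the filter level of 37.7. Dahl S sample 3 is low in all 4 genes on the left, and on the right the sample number separates the values more than the strain.

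Podxl is a known target of the zinc finger factor encoded by Wt1, itself a member, and over all 6 samples is the member with the largest strain difference, so its promoter is shown. Without Dahl S sample 3 its difference of +0.31 was smaller than that of Ptn, at -0.48. The 250 bases before the RefSeq start site (GRCr8, chr4:61149132-61149381, minus strand) are printed 5′ to 3′, with the one match to GGGGGCG, a core shared by factors of the EGR and WT1 type, in capitals.
Podxl: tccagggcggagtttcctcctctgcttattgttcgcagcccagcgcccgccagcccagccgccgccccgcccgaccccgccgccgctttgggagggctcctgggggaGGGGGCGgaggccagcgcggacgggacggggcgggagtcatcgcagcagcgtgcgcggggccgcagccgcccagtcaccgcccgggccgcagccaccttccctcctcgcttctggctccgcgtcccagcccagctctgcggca
The match starts 143 bases before the start site. The RefSeq table held promoters of 7 members, among them Nphs1, which was not measured, but not Actn4. Searched on both strands, GGGGGCG was present in 1 of these 7 member promoters and in 13.2% of all 33469 promoters of the same length. The WT1 core GTGGGAG was present in 0 of the 7 and in 7.5% of all. The window is 76.4% G and C, against a median of 51.2% over all promoters. A match is a string of letters and was not shown to be bound.

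Ptpro encodes GLEPP1, a receptor tyrosine phosphatase of the foot process membrane, and had 3 probe sets, all on type A. The brightest, U28938_at, read 87.8, 116.2 and 124.4 in Dahl S kidneys and 115.4, 101.6 and 152 in congenic kidneys. The groups overlapped, with a Dahl S sample lowest and a congenic sample highest. Its log2 difference was +0.16 (SE 0.25, 95% interval -0.42 to 0.75, n = 3 per strain), so changes beyond about 1.68-fold upward or 1.34-fold downward lie outside the interval. Leaving out Dahl S sample 1 brought it to +0.012, and leaving out congenic sample 3 to 0.0001. The second tested probe set, D45412_s_at, read 56.9, 57.7 and 50.4 against 58.1, 22.7 and 62.4. Of these 6 values, 5 lay close together and congenic sample 2 was low. Its log2 difference of -0.34 (SE 0.44) became +0.13 without congenic sample 2, so without that array the 2 probe sets had the same sign. The third read 4.4 to 8.3 in all samples, under the filter.

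Synpo encodes synaptopodin, which bundles actin with alpha-actinin in foot processes and is also found in dendrites. Its 1 probe set read 105.7, 42 and 76.7 in Dahl S kidneys and 111.2, 132.7 and 37.4 in congenic kidneys. Within each strain the values spread more than the strains differed: the lowest and the highest of the 6 were both congenic. The log2 difference was +0.23 (SE 0.54, 95% interval -1.001 to 1.47), and leaving out Dahl S sample 2 turned it to -0.13, as leaving out congenic sample 2 did to -0.11. A difference of 2-fold in either direction lies within this interval or at its edge.

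Actn4 encodes alpha-actinin-4, an actin crosslinker whose mutation causes a familial glomerulosclerosis and which most kidney cells also make. It had the strongest signal of the members relative to the other probe sets of its array type, and its 3 probe sets were all tested. On type B the brightest read 1889, 1944 and 1607 in Dahl S kidneys and 1697, 1858 and 2090 in congenic kidneys. The strains overlapped and the difference was +0.05 log2 units (SE 0.16, 95% interval -0.31 to 0.42), so that changes beyond 1.34-fold up or 1.24-fold down lie outside the interval. The second type B probe set read 645.8, 587.6 and 684.9 against 545.6, 815.8 and 810.6 (+0.16, SE 0.20). The type A probe set, U19893_at, read 513.3, 474.7 and 403.8 against 415.7, 420.7 and 333.7 (-0.25, SE 0.17), the other way. In it each congenic sample was below the Dahl S sample of the same number, but pairing by number is not established. The strains overlapped, with an unadjusted limma p of 0.174 for this probe set. The 3 probe sets of this gene thus bracket 0.

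Nes encodes nestin, an intermediate filament protein of podocytes that vascular and progenitor cells also make. Its tested probe set read 193.6, 227.6 and 224.7 in Dahl S kidneys and 158.6, 229.1 and 220.9 in congenic kidneys, a difference of -0.10 log2 units (SE 0.21, 95% interval -0.57 to 0.37). Both samples numbered 1 were the lowest of their strain, and without congenic sample 1 the difference was +0.067. The other Nes probe set read 2.6 to 22.1, under the filter, with 1 sample at the floor of 3.1.

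Wt1 encodes the transcription factor that maintains the podocyte state. None of its 4 probe sets passed the filter, so strain differences were not tested. The brightest, on type B, read 50.2, 21 and 49.8 in Dahl S kidneys and 21.8, 23.7 and 64.1 in congenic kidneys, with 3 of the 6 below the filter level. High and low values were found in both strains. On type A the others read 5.2 to 26.3, 3.3 to 17.8 and 4 to 6.3. The first of these had 13.8, 12.5 and 26.3 in Dahl S kidneys against 5.2, 19.6 and 5.6 in congenic kidneys, and the overlapping values gave a log2 difference of -0.997 with no measured side clearly above background. In a limma fit without the filter its unadjusted p was 0.186, and those of the other 3 were 0.681 to 0.935.

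**Figure D4:**
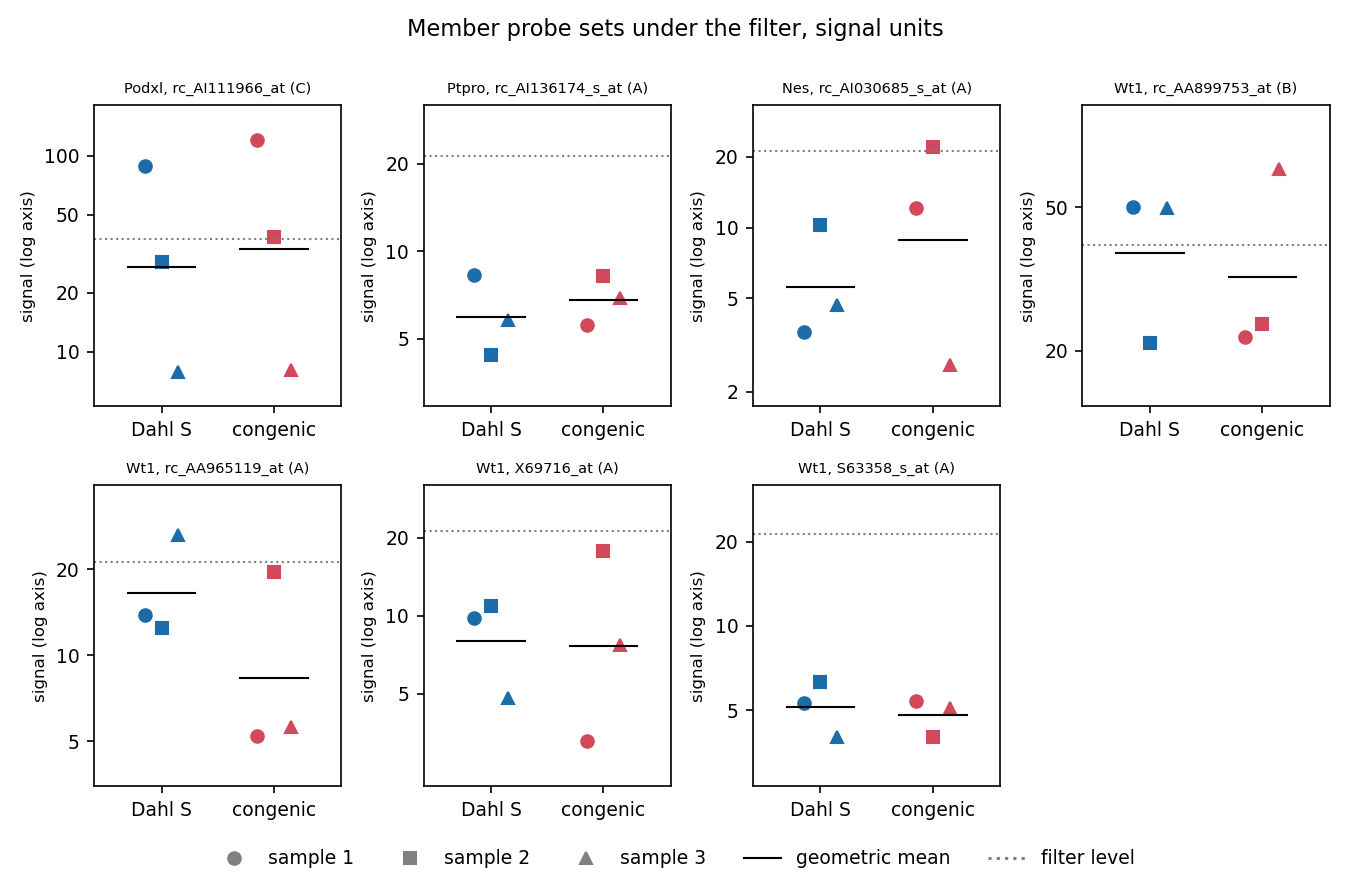
The signal of the 7 member probe sets under the filter is plotted on log axes, with symbols as in the plot of tested probe sets. Most values lie under the dotted filter level of their array type, and the strains overlap in all 7.

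Ptn encodes pleiotrophin, a secreted heparin-binding growth factor. Its 1 probe set read 67.2, 63.7 and 87.8 in Dahl S kidneys and 58.7, 20.2 and 87.9 in congenic kidneys. The strains overlapped and congenic sample 2, below the filter level of 21.2, stood alone at the low end. The log2 difference was -0.62 (SE 0.53, 95% interval -1.82 to 0.59, n = 3 per strain), and -0.0067 (SE 0.31) without congenic sample 2. The unadjusted p in limma was 0.274. On type A that sample was at least 4-fold below all others in 35 of 5244 tested probe sets (0.667%), against 0.076% to 0.305% for the other 5 arrays of the type. The mesangial list was also lowest in it, with a median of -0.22 log2 units relative to the mean of all samples, against 0.03 to 0.19 in the other 5. So was the list of nerve and fibroblast genes, at -0.24, where the other congenic samples stood at -0.09 and -0.08 and the Dahl S samples at 0.20 to 0.26. The part of these in the Ptn value was not tested.

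Genes of 3 lists named for parts of the filtration barrier, with member genes left out, were read beside the members. The RNA was from whole kidney, so a list name does not tell which cells made its transcripts. Of 116 listed genes 96 had a probe set and 87 were tested. In limma 0 had an adjusted p under 0.05 and 2 an unadjusted p under 0.05, both lower in the congenic strain, beside 192 of all 8168 genes tested (2.35%), so the count among these lists is no higher than the background. By direction 44 were higher and 43 lower, with a median of 0.0002 log2 units.

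Among slit diaphragm and podocyte genes 18 of 32 were higher (median +0.09, 1 with an unadjusted limma p under 0.05). That gene was Nherf2, the scaffold that links podocalyxin to ezrin, which read 489.5, 533.9 and 440.9 in Dahl S kidneys and 273, 403.1 and 294.5 in congenic kidneys. The congenic values were all below the Dahl S values (-0.61 log2, SE 0.22), but the other 3 tested Nherf2 probe sets differed by +0.01, +0.07 and +0.08. Next by p came Cdkn1c, the cell cycle inhibitor p57 of mature podocytes (-0.50, SE 0.24), and the phosphatase Dusp1 (-0.81, SE 0.52). All 3 tested Cdkn1c probe sets were lower in the congenic strain, at -0.27, -0.48 and -0.50.

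Among actin and adhesion genes 19 of 38 were higher (median -0.002, 1 with an unadjusted limma p under 0.05). That gene was Dnm1, a dynamin of endocytosis, which read 134.7, 158.4 and 135.9 against 106.8, 43.1 and 102.9 (-0.87, SE 0.37), again with congenic sample 2 the lowest. Tln1, the integrin-binding talin (-0.78, SE 0.40), and Tpm4, a tropomyosin (-0.27, SE 0.15), followed, and the other tested Tpm4 probe sets read +0.02, +0.17 and -0.33.

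Among glomerular basement membrane genes 7 of 17 were higher (median -0.05, 0 with an unadjusted limma p under 0.05). Ndst1, a heparan sulfate sulfotransferase, had the largest difference (+1.47, SE 0.70), with Dahl S sample 3 at 10.8, below the filter level. The collagen IV chain Col4a2 (-0.41, SE 0.28) and nidogen-2, Nid2 (+0.37, SE 0.28), came next.

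The 3 members that were tested podocyte markers, Podxl, Ptpro and Synpo, were also set apart from the other members. The median of their log2 signals, each minus the mean of the 6 samples, was 0.20, 0.02 and 0.02 in Dahl S kidneys and 0.56, 0.32 and 0.41 in congenic kidneys, without overlap. Their summed signal was 459.6, 435.3 and 256.7 against 590.2, 523.8 and 555.1, lowest in Dahl S sample 3, where Podxl was low. This trio was chosen with results known and was not tested, and of its genes taken singly Ptpro and Synpo overlapped between the strains. Among single tested probe sets 3.59% were higher without overlap, and no such share was computed for trios. The other podocyte markers with a probe set were Cd2ap (-0.12, SE 0.25) and Wt1 (brightest probe set -0.22, under the filter and not tested). Both had a lower mean log2 signal in congenic kidneys, and both overlapped between the strains. Medians of the slit diaphragm and podocyte list overlapped, at -0.03, 0.08 and -0.05 in Dahl S and -0.003, -0.03 and 0.04 in congenic kidneys.

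**Figure D5:**
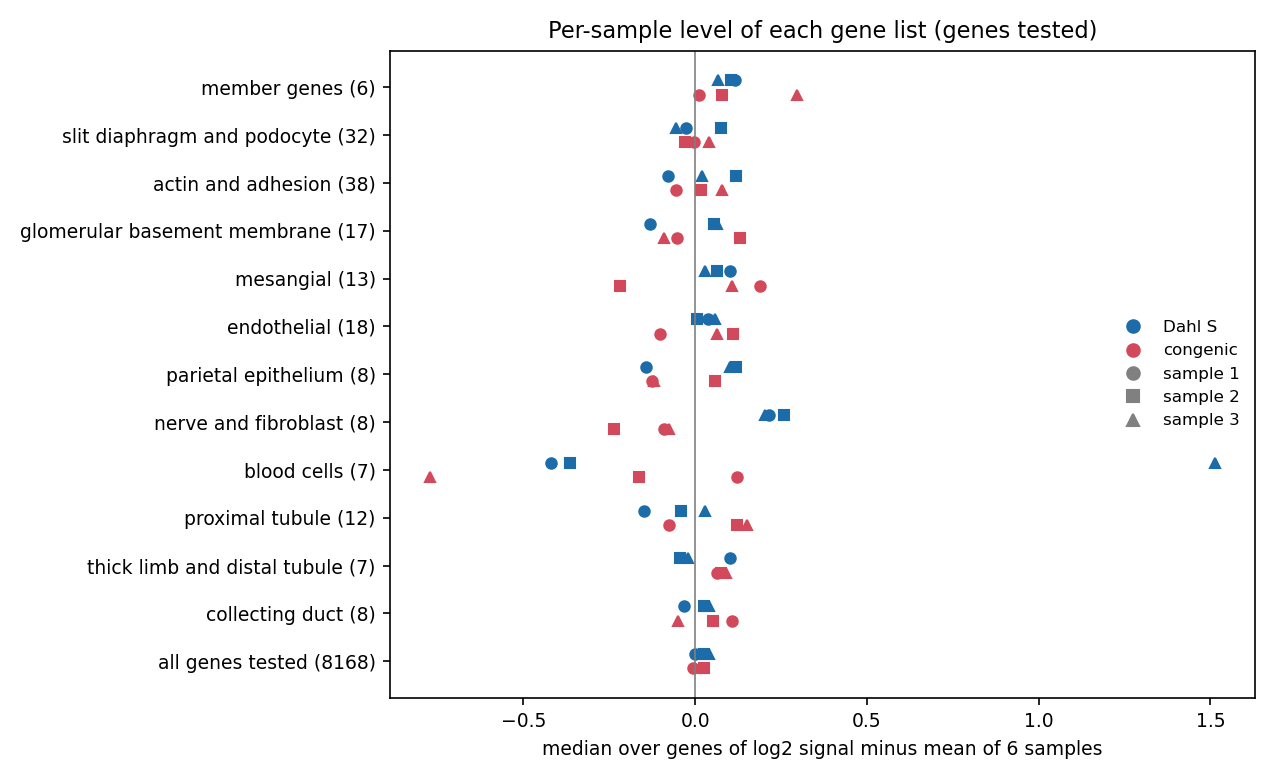
For each gene list, members left out, and for the 6 member genes themselves, the median over its tested genes of log2 signal minus the mean of the 6 samples is plotted per sample (blue, Dahl S; red, congenic; symbol, sample number), with the number of genes in brackets. The median of all 6 member genes and those of the barrier lists lie within 0.30 of 0 in every sample, while blood cell genes reach 1.51 in Dahl S sample 3.

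Markers of other cells of the glomerulus and of the tissue around it were read the same way. Of their genes 0 had an adjusted limma p under 0.05, beside 0 of all 8168 genes tested. An unadjusted limma p under 0.05 was found for 1 of 13 mesangial, 2 of 18 endothelial and 2 of 8 nerve and fibroblast genes. It was found for 0 genes of the other marker lists, beside 192 of all 8168 (2.35%), a description with no test of the lists. Which cells made these transcripts cannot be told in whole-kidney RNA, so each name below is that of a list. Genes of the mesangial list were higher in 5 of 13 (median -0.07), with the actin Acta2 at -0.67 (SE 0.27) and Tagln at -0.38 (SE 0.17). Their other tested probe sets were at -0.20, -0.52 and -0.22 for Acta2 and at -0.83 and -0.29 for Tagln. The summed mesangial signal was 2091 to 2548 in Dahl S kidneys and 1767 to 2129 in congenic kidneys. Endothelial genes were higher in 10 of 18 (median +0.04), with Sox17 at +1.27 (SE 0.36, a second probe set at +0.18), Egfl7 at -1.24 (SE 0.40, a second probe set at -0.10) and the glomerular endothelial sialomucin Emcn at +0.36 (SE 0.16). Their summed signal was 3715 to 4481 in Dahl S and 4145 to 4654 in congenic samples. This sum was lowest in Dahl S sample 3, where Podxl was also lowest, but the median of the endothelial list was not. Relative to the mean of all samples, that median was 0.036, 0.006 and 0.058 log2 units in Dahl S samples 1, 2 and 3. For congenic samples 1, 2 and 3 it was -0.102, 0.111 and 0.063, so congenic sample 1 was lowest by this measure. Genes of the parietal epithelial list were higher in 3 of 8 (median -0.27), with Pax8 at -0.41 (SE 0.19). Of the genes in this paragraph, named for their small p, Tagln, Sox17, Egfl7, Emcn and Pax8 did not overlap between the strains. Of all tested probe sets 7.08% did not overlap.

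In the nerve and fibroblast list 0 of the 8 tested genes were above the Dahl S level in congenic kidneys and 8 below it (median -0.34), with Dcn at -0.69 (SE 0.17), Col1a1 at -0.38 (SE 0.13) and Col1a2 at -0.39 (SE 0.21). Other tested probe sets ran from -1.06 to -0.19 for Dcn, -0.38 to -0.36 for Col1a1 and -0.50 to -0.23 for Col1a2. The summed signal of this list was 5290 to 6339 in Dahl S kidneys and 4150 to 4550 in congenic kidneys, without overlap. Of the tubule markers, 11 of 12 proximal tubule genes (median +0.14), 6 of 7 thick limb and distal tubule genes (+0.11) and 5 of 8 collecting duct genes (+0.03) were higher. Over all 8168 genes tested, 3994 were higher in congenic kidneys and 4174 lower. Blood cell genes were higher in 1 of 7 (median -0.44), and their summed signal was 55200 in Dahl S sample 3, against 10750 to 20151 elsewhere. No tested gene of these marker lists was at 0 in any sample. The part of these cell types in the members' values was not tested.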

How the data were processed

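The authors deposited linear intensity values, 1 for each probe set. Every array had a 2% trimmed mean of 150.1 to 150.2, a scaling that no label records, and the values were scaled no further. The summary software is not named in the sources used. Samples were grouped by title and joined across array types by title number and tag. The 59 controls of each type were left out, values below the 10th percentile of a type (3.1, 6.8 and 4.9 units) were raised to it, log2 was taken, and probe sets under the 40th percentile were not tested.

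The strain comparison used limma 3.58.1 under R 4.3.3 (lmFit, eBayes with trend, two-sided), 1 fit per array type, with Benjamini-Hochberg adjustment over all tested probe sets and a threshold of 0.05. The tested probe set with the highest mean stood for a gene. Of the probe sets 18178 had 1 gene symbol, 391 several and 7633 none. The GRCr8 table gave chromosomes, matched by gene ID for all 7 genes measured. The fit was tested on simulated data.

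The members and lists were chosen with earlier results of these data known. All members are named, and from each list up to 3 genes with the smallest p. Cd2ap, a fixed podocyte marker, was added. Alternatives covered the floor, filter, scaling, variance trend, sample number and left-out samples. Figures used matplotlib 3.10.9 in Python 3.11.15.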

Additional observations from a re-analysis of the deposited data

How the results depend on the processing

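Under the 16 alternatives 0 member probe sets and 0 of all probe sets passed limma's adjusted threshold. For all probe sets the number with an unadjusted limma p under 0.05 ran from 313 with median scaling to 819 with the replicate block where 15721 were tested, and was 259 of 10481 with the filter at the 60th percentile and 798 of 26202 with no filter. The difference of Podxl stayed positive and that of Ptn negative in every alternative run. The filter at the 60th percentile left Ptn untested. Quantile normalization turned the Actn4 difference from +0.053 to -0.035. With each sample left out the ranges were -0.032 to 0.12 for Actn4, -0.20 to 0.067 for Nes, -0.13 to 0.80 for Synpo, 0.0001 to 0.29 for Ptpro, 0.31 to 1.47 for Podxl, -1.07 to -0.0067 for Ptn and -0.013 to 0.12 for the member median. The mean of a gene's tested probe sets gave a member median of -0.050. The cause of these changes was not tested.

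With the replicate block the Podxl difference of +1.08 had an SE of 0.44 and an unadjusted limma p of 0.0385 (adjusted p = 0.923), and the member median was +0.11. With the block and no filter that p was 0.169, and that of Actn4 probe set U19893_at was 0.0272 (adjusted p = 0.868). Without the block, the unadjusted limma p of Podxl was 0.0319 without Dahl S sample 1, 0.0292 without Dahl S sample 2 and 0.217 without Dahl S sample 3. Pairing by sample number is not established for all 3 numbers: deviations from the strain means correlated at 0.45, 0.077 and 0.18 for numbers 1, 2 and 3, and Dahl S samples 1 and 3 correlated best with the congenic sample of their own number, but Dahl S sample 2 with congenic sample 3 (0.15). The number of arrays and the low signal of 7 of the 16 member probe sets limit what can be seen.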
